A study of Vitis vinifera with 23 samples.

Results

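The genes described here are those whose transcripts fell steeply around véraison in control berries, 118 of the 29970 grapevine genes measured. They were chosen on the control samples alone, from L, the log2 of a group's mean FPKM plus 0.1, where FPKM is the number of fragments per unit of transcript length and of library size. A gene was taken when its L fell by at least 3.5 between EL33 and EL34, which is 11.3-fold, when each EL33 control sample held at least 5 FPKM, and when L at EL31 lay less than 3 above L at EL33. The fall in control berries is therefore what chose the genes and is given below as a description. The exposed samples, and the EL38 samples of both treatments, had no part in the choice.

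The samples were whole Sauvignon blanc berries (Vitis vinifera) with the seeds taken out, from field vines of a single vineyard and season. Exposed berries hung on vines that had lost leaves and lateral shoots in the bunch zone, on the southeast-facing side of the canopy, before the first sampling. Control berries hung on vines with the shading foliage left in place. Both were sampled at EL31 (pea-sized, green), EL33 (green, before véraison), EL34 and EL38 (ripe), with 3 samples in every group except the EL38 control group, which had 2. The sample labels name the third stage EL34, whereas the text of the study calls its véraison stage EL35, and both were taken as the same stage.

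A grape berry first grows as a hard, green, acid fruit with working chloroplasts. At véraison it softens, begins to store sugar and stops making the tannins of the green fruit, and many transcripts of the green phase decline at that time. Auxin is known to delay this switch, and small peptide hormones, auxin response genes and wall enzymes are typical products of tissue that is still growing.

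Relative sequencing depth, estimated from the smallest FPKM values, ran from 0.657 to 2.44 over the 23 samples. It was 0.657 to 0.981 in exposed and 0.714 to 0.818 in control berries at EL34, and 0.924 to 1.43 in exposed and 1.01 to 2.44 in control berries at EL33. A list of 51 photosynthesis genes, a marker of green tissue, summed to 8209 to 10230 FPKM in exposed and 6245 to 7727 FPKM in control berries at EL34, and to 19230 to 25800 FPKM in exposed and 11770 to 15600 FPKM in control berries at EL33. A list of 34 seed genes summed to 2122 to 3085 FPKM in exposed and 1999 to 2129 FPKM in control berries at EL34, so transcripts on it were present although the seeds had been removed. These lists moved with stage and treatment, and their part in the values below was not tested. In whole berries, fewer cells of a type and less RNA per cell cannot be told apart.

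The fall was also seen in exposed berries, which were not used to choose the genes. It was not a full shut-off for most genes. At EL34, 40 of the 118 were below 1 FPKM in all control samples and 22 in all exposed samples. The EL34 control values had chosen the genes, so nothing is read from the difference between those counts. In exposed replicates 1, 2 and 3, 58, 31 and 67 of the 118 were below 1 FPKM. The matching shares of all genes tested were not counted. Of the 118 genes, 102 were lower at EL34 than at EL33 in exposed berries at an adjusted p of at most 0.05 in limma, against 21% of the 20205 genes tested, and 1 was higher, against 21.4%. The median log2 difference of exposed EL34 against exposed EL33 was -3.82 over the 118 genes and 0.00 over all genes tested. All 118 passed the filter on low values because the choice itself asked for at least 5 FPKM. Among the 102, the fitted fall in exposed berries ran from 1.39 to 8.89 on the log2 scale, with a median of 3.95.

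On the scale that chose the genes, the median fall between EL33 and EL34 was 3.46 in exposed berries and 4.22 in control berries, and 102 of the 118 genes fell less in exposed than in control berries. Because the control fall chose the genes, nothing is read from that count. Of the 118 genes, 56 also fell by 3.5 in exposed berries, 96 held at least 5 FPKM in each exposed EL33 sample and 47 met the whole rule in exposed berries. The same rule applied to the exposed samples took 59 genes, so the shared 47 were 39.8% of the genes chosen in control berries and 79.7% of those chosen in exposed berries.

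**Figure D1:**
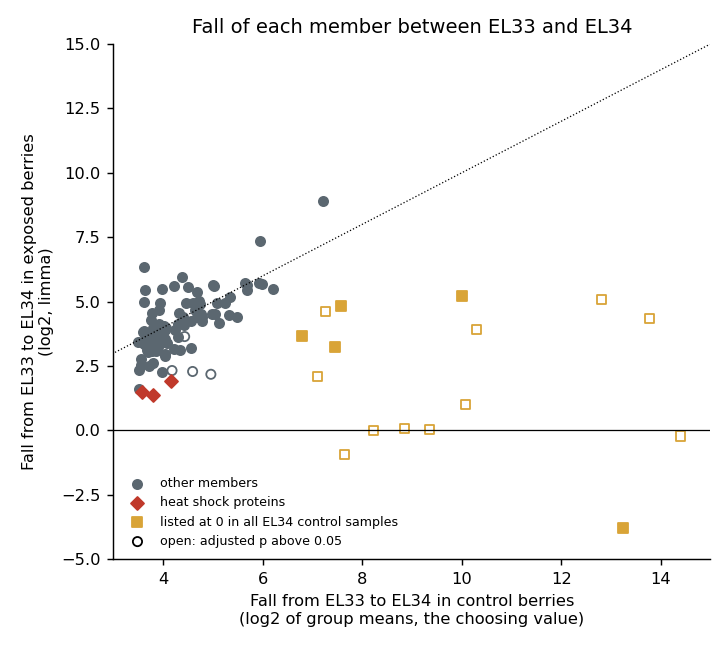
Each point is 1 of the 118 genes, with its fall from EL33 to EL34 in exposed berries on the vertical axis (log2, limma) and in control berries, the choosing value, on the horizontal axis (log2 of group means). The dotted line marks equal falls and open points had an adjusted p above 0.05; the 102 genes called lower in exposed berries lie above 0, the 3 heat shock genes lie low, and the genes listed at 0 in all EL34 control samples scatter widely.

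Sample by sample, the median of the 118 genes was 44.8 to 50.0 FPKM in exposed and 47.4 to 50.1 FPKM in control berries at EL31, and 17.5 to 23.6 FPKM in exposed and 18.5 to 26.9 FPKM in control berries at EL33. At EL34 it was 1.01, 2.61 and 0.834 FPKM in exposed berries, against 1.21, 0.843 and 1.20 FPKM in control berries. By EL38 it was 0.377 to 0.456 FPKM in exposed berries and 0.418 and 0.794 FPKM in control berries. Exposed replicate 2 at EL34 therefore stood above the other 5 samples of that stage. It held the highest of the 3 exposed EL34 values for 95 of the 118 genes, or 80.5%, against 41.6% of all genes tested, and 41 of the 118 were at 5 FPKM or more in it, against 20 in each of the other exposed samples. At EL33, exposed replicate 2 held the highest of the 3 exposed values for 81 of the 118 genes, or 68.6%, against 32.4% of all genes tested.

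**Figure D2:**
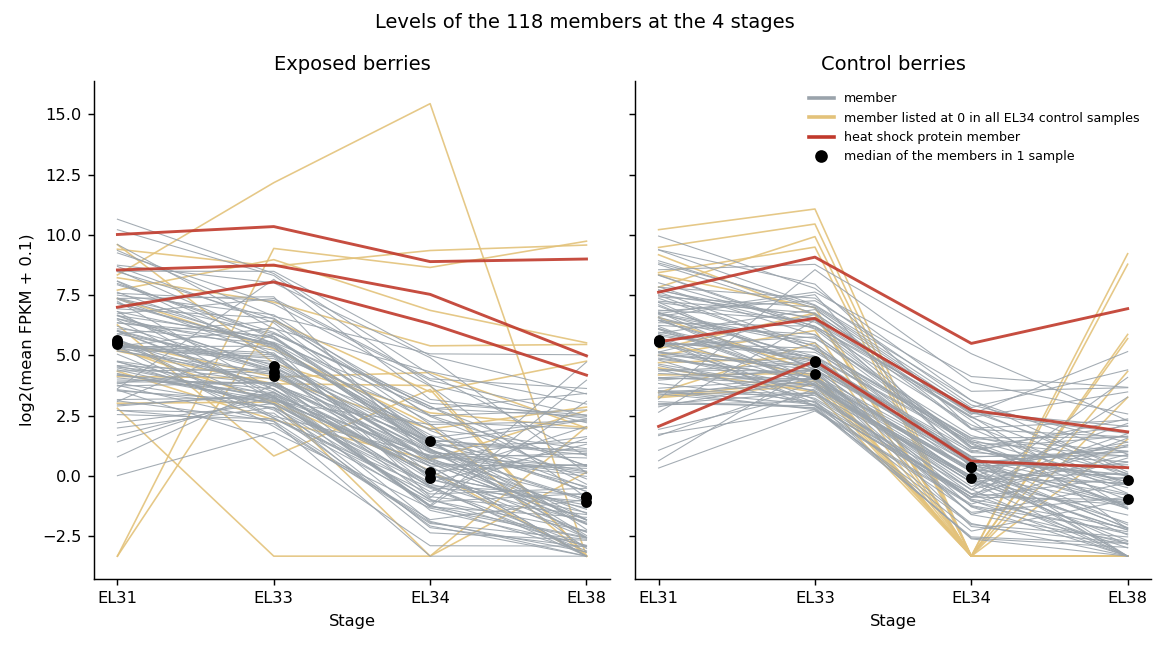
Lines show the log2 of the mean FPKM plus 0.1 of each of the 118 genes at the 4 stages, in exposed berries on the left and in control berries on the right, and black points show the median of the 118 genes in each sample. The medians were 0.834 to 2.61 FPKM in exposed and 0.843 to 1.21 FPKM in control berries at EL34, while the 3 heat shock genes stayed high in exposed berries.

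The genes did not all follow the same course before and after this step. From EL31 to EL33 in exposed berries, 44 of the 118 were called lower, against 20.6% of genes tested, and 8 were called higher, against 11.7%. From EL34 to EL38 in exposed berries, 48 were called lower, against 29.5%, and 10 were called higher, against 25.2%. The courses over the 3 steps were counted for the 118 genes only. The shares of all genes tested on these courses were not counted, so the numbers are descriptions. Taken over the 3 steps, 21 genes were called lower at each. Another 24 had no call at the first step and were lower at the last 2, 22 were lower between EL33 and EL34 with no call before or after, 18 were lower at the first 2 steps with no call at the last, 6 were higher at the first step and then lower with no call at the last, and 10 fell at EL34 and were called higher again at EL38. By EL38, 60 of the 118 were below 1 FPKM in all 3 exposed samples, and 63 were below 1 FPKM in both control samples.

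The lists of gene functions used below come from annotations in the study's supplementary tables, most of which hold genes that the study selected on these same samples. They covered 59 of the 118 genes, 49 of them with a function, and 28 fell in at least 1 list. The lists are therefore no independent evidence of direction, and the counts describe which kinds of gene were among the 118.

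Signals and regulators of growth made up the first group. The most abundant of these at EL33 was Vv00s1328g00020, which encodes a phytosulfokine (PSK4), a sulfated peptide hormone that promotes cell growth. It held 486, 398 and 195 FPKM in exposed berries, against 606, 268 and 445 FPKM in control berries at EL33 and 26.1, 54.9 and 14.3 FPKM in exposed berries, against 44.1, 36.1 and 20.6 FPKM in control berries at EL34. Every sample at EL34 was below every sample at EL33, and the exposed fall was called (exposed EL34 against exposed EL33: log2 difference -3.61, SE 0.48, adjusted p = 1.11e-05). At EL38 it held 8.37, 13.7 and 9.34 FPKM in exposed berries, against 2.32 and 7.31 FPKM in control berries. These values do not overlap, but the difference was not called in limma (adjusted p = 0.208). Such separation is common. Every exposed sample lay above every control sample in 11.3%, 8.96%, 9.16% and 12.6% of all genes tested from EL31 to EL38. Every exposed sample lay below in 10.2%, 12.1%, 9.88% and 18.4%.

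Auxin genes were represented by 3 members, all of them called lower at EL34 in exposed berries, beside 22 lower and 14 higher of the 42 tested. Vv09s0002g00670, a SAUR gene of the family of small transcripts that auxin induces within minutes, had the largest fitted exposed fall of the 118. It held 142, 227 and 149.9 FPKM in exposed berries, against 189, 143 and 218 FPKM in control berries at EL33. At EL34 it held 0, 4.42 and 0 FPKM in exposed berries, against 1.36, 1.08 and 0.952 FPKM in control berries, so 2 exposed samples were listed at 0 and the third lay above all control samples (log2 difference -8.89, SE 1.15, adjusted p = 8.50e-06 for exposed EL34 against exposed EL33). The second SAUR gene, Vv03s0038g01090, held 9.97, 6.68 and 8.15 FPKM in exposed berries, against 16.8, 9.56 and 6.73 FPKM in control berries at EL33 and was at 1.3, 1.91 and 0 FPKM in exposed berries at EL34, while all 3 control samples were listed at 0. The third, Vv15s0046g00290, encodes auxin response factor 18, a transcription factor that binds the promoters of auxin response genes. It held 18.6, 26.8 and 18.9 FPKM in exposed berries, against 56.3, 44.5 and 37.6 FPKM in control berries at EL33, where the exposed samples lay below all control samples without a call (adjusted p = 0.112), and 0.50, 1.48 and 0.725 FPKM in exposed berries, against 2.25, 0.596 and 1.07 FPKM in control berries at EL34.

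Transcription factors gave 3 further members. Vv03s0063g02620 is annotated as a RAD-type MYB, a small MYB-domain protein first described in the control of flower symmetry in snapdragon. It held 1672, 894 and 1000.4 FPKM in exposed berries, against 743, 629 and 633 FPKM in control berries at EL31 and 491, 297 and 169.5 FPKM in exposed berries, against 349, 174 and 224 FPKM in control berries at EL33. At EL34 it was down to 5.47, 34.7 and 0.861 FPKM in exposed berries, against 0.935, 1.34 and 9.26 FPKM in control berries (log2 difference -5.67, SE 0.95, adjusted p = 1.09e-04 for exposed EL34 against exposed EL33). Its spread at EL34 was wide in both treatments, and the groups overlapped. A RADIALIS-like gene 50 running numbers away, Vv03s0063g02670, was also called lower at EL34 in exposed berries and was at 0 in all EL38 samples after 30.7, 31.1 and 30.6 FPKM in exposed berries, against 20.4, 12.7 and 29.9 FPKM in control berries at EL33.

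The other transcription factors were a homeobox gene, Vv15s0021g01880, annotated after Arabidopsis HOMEOBOX PROTEIN 2, and a C2H2 zinc finger gene, Vv02s0154g00220. The homeobox gene held 26.6, 92.7 and 46 FPKM in exposed berries, against 70.4, 112 and 80.7 FPKM in control berries at EL33 and 0.59, 4.42 and 1.13 FPKM in exposed berries, against 2.5, 1.32 and 2.83 FPKM in control berries at EL34 (exposed EL34 against exposed EL33: log2 difference -4.95, SE 0.55, adjusted p = 1.70e-06). All 3 transcription factor members were called lower in exposed berries at this step, while 82 of the 266 transcription factors tested were lower and 124 were higher.

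Receptor-like kinases, which sense signals at the cell surface, gave 3 members, all called lower at EL34 in exposed berries, in a list of receptor kinases and disease resistance proteins where 97 of the 192 genes tested were lower and 39 higher. The list of ethylene, jasmonate and abscisic acid genes gave 2, both called lower, beside 22 lower and 14 higher of the 47 tested. The receptor kinase RKF1 homologue Vv10s0003g01960 held 56.2, 73.3 and 49.9 FPKM in exposed berries, against 103, 96.4 and 82.9 FPKM in control berries at EL33, 4.2, 14.5 and 3.28 FPKM in exposed berries, against 8.0, 5.58 and 6.83 FPKM in control berries at EL34 and 0.854, 0.673 and 0.545 FPKM in exposed berries, against 0.95 and 0.954 FPKM in control berries at EL38. It was called lower in exposed berries at every step from EL31 to EL38. Vv00s0294g00100, annotated as the brassinosteroid co-receptor BAK1, was at 0 in 2 of the 3 exposed and 2 of the 3 control samples at EL34, after 8.87, 13.1 and 7.3 FPKM in exposed berries, against 21.4, 12 and 27 FPKM in control berries at EL33. Vv12s0035g00900 encodes JAZ12, a repressor of jasmonate responses. It held 15.8, 23.2 and 19.1 FPKM in exposed berries, against 40.3, 23.3 and 28.7 FPKM in control berries at EL33 and 0.633, 2.64 and 0.415 FPKM in exposed berries, against 0.935, 0.771 and 1.35 FPKM in control berries at EL34, and was at 0, 0 and 0 FPKM in exposed and 0 and 0.168 FPKM in control berries at EL38.

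Cell wall genes gave 3 members, all called lower at EL34 in exposed berries, in a list where 40 of the 69 genes tested were called higher and 21 lower at this step. Vv00s0975g00020 encodes CSLE1, a cellulose synthase-like protein. It held 90.1, 103 and 65.2 FPKM in exposed berries, against 145, 95.8 and 119 FPKM in control berries at EL33 and 4.0, 10.4 and 2.52 FPKM in exposed berries, against 9.26, 4.62 and 4.06 FPKM in control berries at EL34 (exposed EL34 against exposed EL33: log2 difference -4.13, SE 0.42, adjusted p = 7.39e-07). The pectinesterase Vv05s0062g01160, an enzyme that removes methyl groups from pectin, held 5.12, 9.45 and 6.22 FPKM in exposed berries, against 8.42, 7.77 and 8.89 FPKM in control berries at EL33 and 0, 0.286 and 0 FPKM in exposed berries, against 0.043, 0.104 and 0.0455 FPKM in control berries at EL34. The invertase and pectin methylesterase inhibitor Vv01s0011g05390 held 39.6, 38.1 and 25.4 FPKM in exposed berries, against 45.4, 31.4 and 27.9 FPKM in control berries at EL33 and 0.205, 2.25 and 0 FPKM in exposed berries, against 5.56, 1.26 and 1.42 FPKM in control berries at EL34. In this gene exposed replicates 1 and 3 lay below all control samples at EL34 and exposed replicate 2 lay among them. Outside the cell wall list, the subtilase Vv16s0022g02200 held 86.3, 124 and 98 FPKM in exposed berries, against 137, 128 and 121 FPKM in control berries at EL33. At EL34 it held 2.16, 11.3 and 2.91 FPKM in exposed berries, against 7.13, 5.34 and 6.52 FPKM in control berries.

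Transporters and channels gave 6 members, all of which were called lower at EL34 in exposed berries, beside 81 lower and 76 higher of the 189 tested. Vv07s0104g00830, a sugar transporter of the ERD6-like family that moves sugar across the vacuole membrane in Arabidopsis, held 160.5, 182 and 152 FPKM in exposed berries, against 221, 168 and 204 FPKM in control berries at EL33 and 10.7, 26.1 and 12 FPKM in exposed berries, against 19.8, 15.2 and 17.1 FPKM in control berries at EL34, with a standard error of 0.23 on the exposed log2 difference of -3.45 (adjusted p = 2.08e-08). The amino acid permease Vv19s0027g01890 held 109, 97.2 and 74.3 FPKM in exposed berries, against 132, 96.2 and 96.4 FPKM in control berries at EL33, 2.14, 9.82 and 1.07 FPKM in exposed berries, against 6.7, 2.31 and 5.56 FPKM in control berries at EL34 and 0.272, 0.073 and 0 FPKM in exposed berries, against 0 and 0.236 FPKM in control berries at EL38. A nodulin MtN21 gene, Vv14s0066g01640, held 46.4, 48.8 and 37.4 FPKM in exposed berries, against 74.9, 52.7 and 48.1 FPKM in control berries at EL33 and 1.5, 4.21 and 1.22 FPKM in exposed berries, against 2.64, 1.85 and 2.08 FPKM in control berries at EL34. None of the 6 was called between exposed and control berries at any stage.

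Flavonoid genes gave 4 members, all called lower at EL34 in exposed berries, beside 18 lower and 16 higher of the 38 tested. The flavonol sulfotransferase Vv13s0106g00550, which would add sulfate to flavonols, held 60.6, 46.1 and 51.5 FPKM in exposed berries, against 101, 83.7 and 65.9 FPKM in control berries at EL33, 0.925, 6.13 and 1.22 FPKM in exposed berries, against 8.88, 3.75 and 3.76 FPKM in control berries at EL34 and 0, 0.0741 and 0 FPKM in exposed berries, against 0.102 and 0.48 FPKM in control berries at EL38. The other 3 are annotated as anthocyanidin 3-O-glucosyltransferases, enzymes that attach glucose to anthocyanidins, although Sauvignon blanc is a white grape. Of these, Vv19s0014g01950 held 9.5, 17.4 and 9.58 FPKM in exposed berries, against 15.4, 13.7 and 11.8 FPKM in control berries at EL33 and 0.284, 0.993 and 0.61 FPKM in exposed berries, against 0.891, 1.03 and 0.506 FPKM in control berries at EL34. Vv03s0017g02000 is described with the EL38 comparison below.

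The photosynthesis list held none of the 118 by its search words, but 1 member, Vv19s0014g00160, is annotated as LHCII type I CAB-1, a light-harvesting protein. It held 331, 397 and 382 FPKM in exposed berries, against 162, 190.2 and 187 FPKM in control berries at EL31, 33.3, 76.5 and 43.6 FPKM in exposed berries, against 38, 29.2 and 44.5 FPKM in control berries at EL33 and 3.66, 6.93 and 3.42 FPKM in exposed berries, against 2.62, 1.58 and 4.37 FPKM in control berries at EL34. The exposed samples at EL31 all lay above the control samples, but the difference was not called in the limma fit of all groups (adjusted p = 0.0988). With its own CuffDiff test, the study reported significantly higher expression of this gene in exposed green berries. Vv03s0038g04570, a large subunit of ADP-glucose pyrophosphorylase, the enzyme that commits glucose to starch, had the smallest spread of the genes named here. It held 44.1, 49.2 and 46.9 FPKM in exposed berries, against 75.9, 73.1 and 72.5 FPKM in control berries at EL33 and 5.87, 6.79 and 7.97 FPKM in exposed berries, against 6.33, 5.63 and 6.65 FPKM in control berries at EL34 (exposed EL34 against exposed EL33: log2 difference -2.76, SE 0.11, adjusted p = 1.34e-10).

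The 118 genes were also compared between exposed and control berries at each stage. At EL31, EL33 and EL34 the control samples had chosen the genes, so these counts are descriptions. The limma fit used 1 spread per gene over all 8 groups. Scatter at EL34 and EL38 therefore also entered the tests at EL31 and EL33. The standard deviation between replicates of the genes' median log2 value was 0.06 at EL31, 0.26 at EL33, 0.61 at EL34 and 0.40 at EL38. A gene without a call at EL31 or EL33 is thus not shown to be unchanged. Counts from fits of 2 groups alone are in the closing section. At EL31, 4 of the 118 were called higher in exposed berries, against 3.8% of genes tested, and 0 were called lower, against 0.881%; at an unadjusted p under 0.05, 6 were higher and 2 were lower. At EL33, 2 were called higher, against 2.54%, and 3 were called lower, against 0.95%. At EL34, 7 were called higher, against 2.17%, and 0 were called lower, against 1.16%, with 16 higher and 6 lower at an unadjusted p under 0.05.

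At EL38, whose samples did not choose the genes, 5 of the 118 were called higher in exposed berries, against 1.52% of genes tested. Another 3 were called lower, against 3.26%. Every exposed sample lay above every control sample for 19 of the 118, against 12.6% of genes tested, and below for 17, against 18.4%. The median log2 difference of the 118 genes was -0.10 at EL31, -0.41 at EL33, 0.12 at EL34 and -0.02 at EL38, where the medians over all genes tested were -0.03, -0.02, -0.01 and -0.03. With the range of the sample number (the fifties or the sixties) as a term, limma called 0 of the 118 at EL38 in either direction, with 12 higher and 3 lower at an unadjusted p under 0.05, and over all genes tested it called 39 higher and 58 lower. Both EL38 control samples and exposed replicate 1 have numbers in the fifties, and the other exposed samples have numbers in the sixties, so that fit rests on few samples. Fitted on the 2 EL38 groups alone, limma called 0 as well, with 10 higher and 5 lower at an unadjusted p under 0.05, and over all genes tested it called 8 higher and 6 lower.

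**Figure D3:**
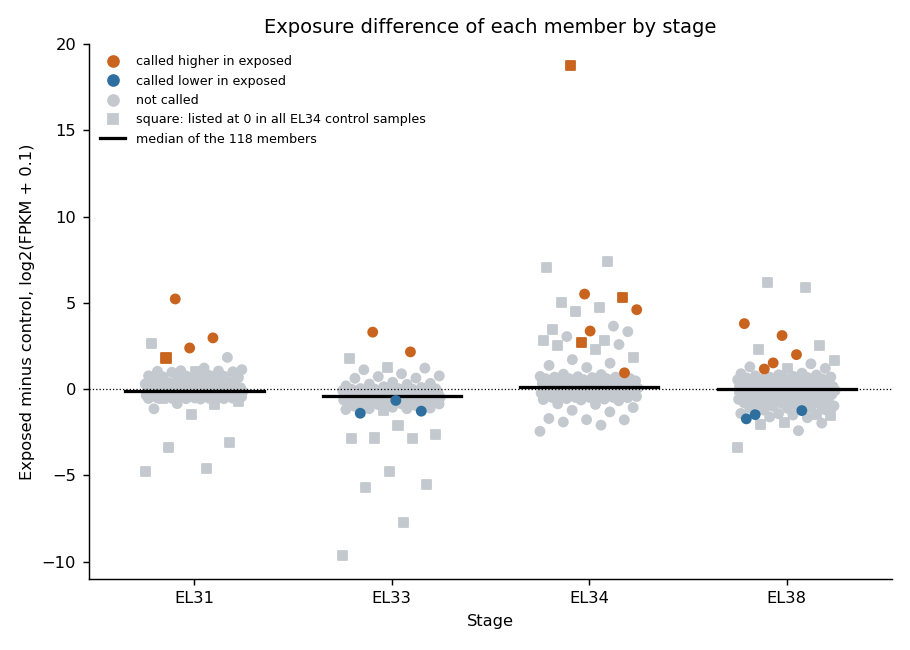
Each point is the exposed minus control log2 difference of 1 of the 118 genes at a stage, orange where called higher and blue where called lower in exposed berries, and the black bar is the median. Squares are genes listed at 0 in all EL34 control samples. The medians were -0.10, -0.41, 0.12 and -0.02 from EL31 to EL38. In the fit of all 8 groups, with 1 spread per gene, few genes were called at every stage.

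At EL33 the difference of exposed against control berries was below 0 for 97 of the 118 genes. The share of all genes tested below 0 was not counted, and their median was -0.02. The choice itself favours high EL33 control values, so the genes were chosen again from 2 control samples and the exposed samples were set against the control sample left out. With control replicate 1, 2 or 3 left out of the choice, 139, 164 and 158 genes were taken. At EL33 the median of exposed minus the left-out control sample was -0.57, -0.22 and -0.25, and the median of exposed minus the control samples that made the choice was -0.38, -0.67 and -0.63. At EL34 it was -0.31, 0.14 and 0.00 against the left-out sample, and 0.52, 0.11 and 0.34 against the choosing samples. The median at EL33 was below 0 in all 3 repeats, and the sign at EL34 depended on which control sample was left out. The repeats used the same exposed samples and overlapping sets of genes, so they are not independent. The matching medians over all genes tested were not computed, and an effect of exposure on the 118 genes as a set was not tested.

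At EL34 the comparison turned on exposed replicate 2. Without it the median log2 difference of exposed against control berries was -0.27 rather than 0.12, and 10 of the 118 were called lower in exposed berries, against 1.25% of genes tested in that fit, with 6 called higher, against 1.51%. The 10 included the invertase and pectin methylesterase inhibitor Vv01s0011g05390 (log2 difference -3.70, adjusted p = 0.00112), the SAUR gene Vv09s0002g00670 (log2 difference -3.61, adjusted p = 0.0283), the flavonol sulfotransferase Vv13s0106g00550 (log2 difference -2.13, adjusted p = 0.00972), the subtilase Vv16s0022g02200 (log2 difference -1.29, adjusted p = 9.16e-04) and the sugar transporter Vv07s0104g00830 (log2 difference -0.60, adjusted p = 0.025). With all 3 exposed samples none of these was called at EL34. The replicate was singled out after its values were seen. It held the highest exposed EL34 value for 95 of the 118 genes, so leaving it out lowered the exposed side. Of the 23 fits that left out 1 sample, this one gave the lowest median difference at EL34. Both remaining exposed values of the SAUR gene were 0 FPKM, so its log2 difference depends on the added 0.1. The 10 calls are therefore a description.

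The 3 genes called lower in exposed berries at EL33 differed in their later course. ADP-glucose pyrophosphorylase Vv03s0038g04570, with the EL33 values given above, was 0.66 lower on the log2 scale in exposed berries (SE 0.11, adjusted p = 0.00279), and its exposed and control samples did not overlap. Vv18s0001g00720, which has no annotation, held 4.57, 6.23 and 5.69 FPKM in exposed berries, against 16.3, 14.9 and 9.92 FPKM in control berries at EL33 (log2 difference -1.28, SE 0.23, adjusted p = 0.0043), again with no overlap. Vv18s0122g00280, also without annotation, held 2.94, 3.05 and 2.17 FPKM in exposed berries, against 9.24, 7.01 and 5.95 FPKM in control berries at EL33 (log2 difference -1.40, SE 0.31, adjusted p = 0.0166) and was near 0 in every sample of both treatments from EL34 on. Its call was lost without exposed replicate 3, control replicate 1 or control replicate 2 of EL33, with an adjusted p of up to 0.0852. Fitted with limma on the 2 EL33 groups alone, 0 of the 118 were called at EL33, with 7 higher and 37 lower at an unadjusted p under 0.05, and over all genes tested 0 were called higher and 4 lower.

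Both unannotated genes have a neighbour among the 118. Vv18s0122g00290, next to Vv18s0122g00280 in the running numbers, held 38.3, 58.1 and 29.4 FPKM in exposed berries, against 124, 71.4 and 79.9 FPKM in control berries at EL33 and 0, 1.36 and 0 FPKM in exposed berries, against 2.51, 0.171 and 1.5 FPKM in control berries at EL34. Its exposed samples at EL33 also lay below all control samples, without a call (adjusted p = 0.627). Vv18s0001g00710, next to Vv18s0001g00720, held 0, 5.04 and 0 FPKM in exposed berries, against 13.3, 22.4 and 24 FPKM in control berries at EL33 and was listed at 0 in all later samples except exposed replicate 2 at EL34, which held 35.8 FPKM. In all, 8 pairs of the 118 genes lie within 100 running numbers of each other.

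The largest group of such neighbours was a run of small heat shock protein genes, in which every exposed sample lay above every control sample at all 4 stages. Small heat shock proteins bind unfolding proteins and keep them from aggregating, and their genes respond to heat and strong light. The run has 3 of the 118 genes among its 9 annotated genes, from Vv13s0019g02740 to Vv13s0019g03000. Vv13s0019g02840 held 141, 124 and 119 FPKM in exposed berries, against 1.92, 2.41 and 7.88 FPKM in control berries at EL31, and 273, 344 and 177 FPKM in exposed berries, against 26.5, 17.2 and 38 FPKM in control berries at EL33. At EL34 it held 39.7, 145 and 54.7 FPKM in exposed berries, against 1.77, 1.02 and 1.51 FPKM in control berries, and at EL38 5.51, 25 and 23.8 FPKM in exposed berries, against 0.504 and 1.84 FPKM in control berries. No exposed sample overlapped the control samples at any stage.

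The log2 difference of exposed against control for Vv13s0019g02840 was 5.22 at EL31, 3.30 at EL33, 5.50 at EL34 and 3.79 at EL38, with adjusted p values of 6.02e-05, 0.00683, 3.56e-05 and 0.00453. Vv13s0019g02740, annotated as a 16.9 kDa class I protein, held 531, 493 and 266 FPKM in exposed berries, against 88.9, 85.2 and 104 FPKM in control berries at EL33 and 88, 336 and 132 FPKM in exposed berries, against 6.71, 4.78 and 8.16 FPKM in control berries at EL34. Its log2 difference was 2.96, 2.15, 4.60 and 3.10 over the 4 stages, called at each, with an adjusted p of 0.0205 at EL33 that reached 0.0924 when a single EL33 sample was left out.

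Vv13s0019g02930, annotated as a 17.4 kDa class I protein, was the most abundant of the 3. It held 1234, 1779.7 and 889 FPKM in exposed berries, against 564, 534 and 524 FPKM in control berries at EL33, 319, 757 and 350.1 FPKM in exposed berries, against 59.5, 25.8 and 50.2 FPKM in control berries at EL34 and 317, 571 and 649 FPKM in exposed berries, against 125 and 121 FPKM in control berries at EL38. Its log2 difference of exposed against control was 2.38 at EL31 (adjusted p = 3.93e-04), 1.21 at EL33 (adjusted p = 0.0685, not called), 3.36 at EL34 (adjusted p = 1.45e-05) and 1.99 at EL38 (adjusted p = 0.00682). The EL38 calls of all 3 were lost when 1 EL38 control sample was left out, at an adjusted p of 0.0674 for Vv13s0019g02740 and 0.0867 for Vv13s0019g02840 without control replicate 1, and of 0.0677 for Vv13s0019g02930 without control replicate 2.

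In exposed berries the 3 heat shock genes and Vv18s0001g00720 had the 4 smallest fitted falls in limma of the 102 genes not listed at 0 in EL34 control berries. On the log2 of group means the order differed. There 101 of the 102 fell by at least 1 in exposed berries, and Vv00s0250g00080, annotated as unknown, fell by 0.96. Between exposed EL33 and exposed EL34 the fitted log2 difference was -1.39 for Vv13s0019g02740, -1.91 for Vv13s0019g02840 and -1.51 for Vv13s0019g02930. Their choosing falls in control berries, which are on the log2 of group means, were 3.804, 4.15 and 3.58. The calls of Vv13s0019g02740 and Vv13s0019g02840 at this step were lost in 4 and 3 of the fits that left out 1 sample, with an adjusted p of up to 0.16 and 0.0979.

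**Figure D4:**
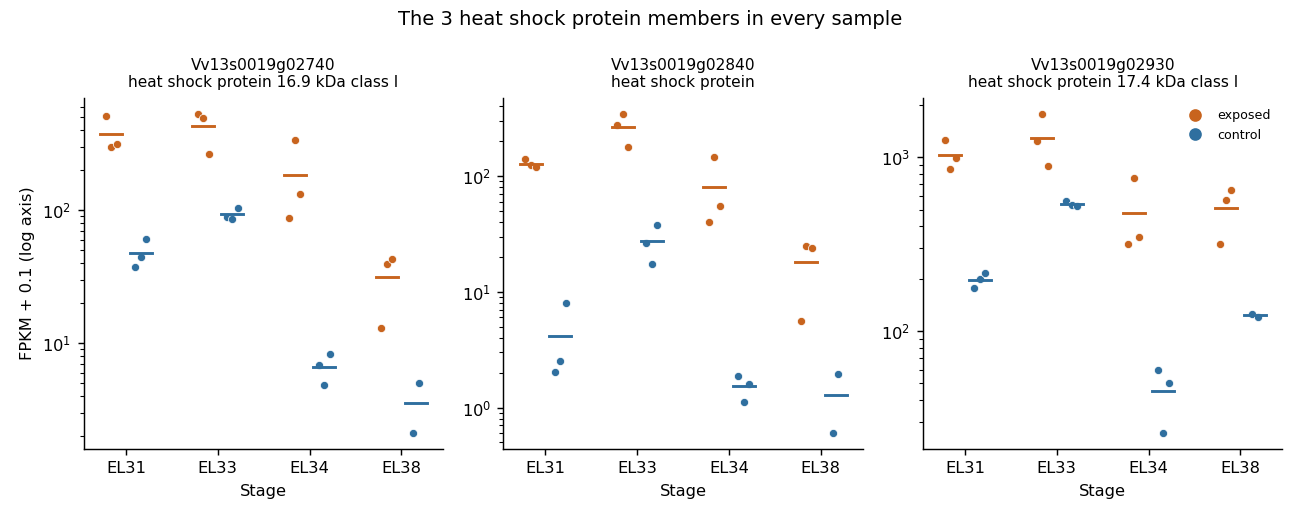
Points are the FPKM plus 0.1 of the 3 heat shock members in every sample on a log axis, exposed berries in orange to the left of control berries in blue at each stage, and bars are group means. Exposed samples lay above all control samples at every stage, and the control samples were lowest at EL34 or EL38.

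The other 6 genes of the run were not chosen. All 6 were called higher in exposed berries at every stage, except Vv13s0019g02760 at EL38 (adjusted p = 0.101). Vv13s0019g03000, a gene just outside the threshold with a control fall of 3.48, averaged 397 FPKM in exposed and 26.7 FPKM in control berries at EL34, a log2 difference of 3.77 (adjusted p = 2.81e-06). These genes are annotated as one family, and how reads that match several copies were split is not given in the sources used here, so the value of a single copy is uncertain. Over the whole annotation, 91 heat shock and chaperone genes summed to 13820 to 22610 FPKM in exposed and 4650 to 5033 FPKM in control berries at EL34, and 48 of them were called higher and 1 lower in exposed berries.

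Beside the heat shock genes, 2 members were called higher in exposed berries at EL38. Vv02s0012g00450 encodes 1-aminocyclopropane-1-carboxylate (ACC) oxidase, the last enzyme of ethylene synthesis. It held 29.3, 38.2 and 29.8 FPKM in exposed berries, against 47.5, 34.6 and 35.8 FPKM in control berries at EL33. At EL34 it held 4.84, 5.9 and 5.96 FPKM in exposed berries, against 3.69, 2.26 and 2.76 FPKM in control berries (log2 difference 0.94, SE 0.19, adjusted p = 0.00947), and at EL38 5.57, 6.71 and 7.48 FPKM in exposed berries, against 3.7 and 2.23 FPKM in control berries (log2 difference 1.16, SE 0.21, adjusted p = 0.00452). At EL31 it held 42, 42.1 and 38.6 FPKM in exposed berries, against 42.6, 46.5 and 46.9 FPKM in control berries. There every exposed sample lay below every control sample, without a call (adjusted p = 0.837). The treatments overlapped at EL33, and every exposed sample lay above every control sample at EL34 and EL38. The calls at EL34 and EL38 were each lost without control replicate 2 of that stage, with an adjusted p of 0.0661 at EL34 and 0.112 at EL38, and both were lost with the replicate block, with the sample number range as a term and in the fit of the 2 groups alone.

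The other was Vv04s0008g00740, without annotation, at 0.15, 0.435 and 0.316 FPKM in exposed berries, against 0 and 0.0782 FPKM in control berries at EL38 (log2 difference 1.52, SE 0.37, adjusted p = 0.0234). All of these values are below 1 FPKM, and the call was lost without exposed replicate 2, exposed replicate 3 or control replicate 1, with an adjusted p of up to 0.246.

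The 3 members called lower in exposed berries at EL38 were of different kinds. Vv03s0017g02000, annotated as an anthocyanidin 3-O-glucosyltransferase, held 0.31, 0.78 and 0.401 FPKM in exposed berries, against 0.469, 0.416 and 0.608 FPKM in control berries at EL34, where the treatments overlapped. At EL38 it held 0.892, 0.331 and 0.588 FPKM in exposed berries, against 1.62 and 1.91 FPKM in control berries with no overlap (log2 difference -1.48, SE 0.31, adjusted p = 0.0109), a call lost without control replicate 2 at an adjusted p of 0.114. Vv15s0107g00550, a tetratricopeptide repeat gene annotated after the male sterility gene MS5, held 8.67, 3.87 and 4.17 FPKM in exposed berries, against 11.2 and 13.9 FPKM in control berries at EL38 (log2 difference -1.25, SE 0.31, adjusted p = 0.0247). The LRK10 receptor kinase Vv16s0098g00030 held 0.188, 0 and 0 FPKM in exposed berries, against 0.221 and 0.592 FPKM in control berries at EL38, all of them below 1 FPKM, with an adjusted p of 0.049 that passed 0.05 in 19 of the fits that left out 1 sample.

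Vv15s0107g00550 turned its order over the season. At EL31 it held 174, 193 and 206 FPKM in exposed berries, against 101, 99.3 and 144 FPKM in control berries, all exposed samples above all control samples but without a call (adjusted p = 0.165). Its EL38 call was lost without exposed replicate 2, exposed replicate 3 or either control sample, with an adjusted p of up to 0.216.

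After their fall, 10 of the 118 genes were called higher at EL38 than at EL34 in exposed berries. The largest rise was in Vv03s0038g04330, without annotation, which held 9.03, 24.2 and 14.5 FPKM at EL33, 1.29, 0 and 0 FPKM at EL34 and 18.7, 24.2 and 36.4 FPKM at EL38 in exposed berries. In control berries it held 19.5, 9.78 and 12.5 FPKM at EL33, 0, 1.72 and 0 FPKM at EL34 and 19.5 and 14.4 FPKM at EL38. With values at 0, its fitted log2 difference of 6.73 in exposed berries depends on the added 0.1 (adjusted p = 1.46e-05).

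Vv12s0057g01070, without annotation, rose to 19.4, 11.2 and 16.2 FPKM in exposed berries, against 11.3 and 7.83 FPKM in control berries at EL38. It had held 0.202, 0.41 and 0.388 FPKM in exposed berries, against 0.159, 0.54 and 0.632 FPKM in control berries at EL34, so its level in ripe exposed berries was above that of EL33 (6.75, 6.38 and 6.59 FPKM), and the exposed EL38 against exposed EL34 difference was 5.19 (SE 0.34, adjusted p = 9.46e-10). Vv19s0090g01170, a gene of the UPF0041 family, which includes mitochondrial pyruvate carriers, held 9.2, 5.27 and 11 FPKM in exposed berries, against 3.06 and 2.72 FPKM in control berries at EL38 and was at 0 in 2 of 3 samples of each treatment at EL34. Auxin response factor 18, Vv15s0046g00290, held 3.75, 5.31 and 3.09 FPKM in exposed berries, against 2.19 and 2.22 FPKM in control berries at EL38 (exposed EL38 against exposed EL34: log2 difference 2.14, SE 0.36, adjusted p = 7.79e-05), still far below its EL33 level.

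The log2 differences of the remaining 6 that rose again ran from 0.84 to 2.41. They include a CONSTANS-LIKE 14 gene, Vv14s0068g01380 (log2 difference 0.90, SE 0.25, adjusted p = 0.0047), of a family of zinc finger proteins linked to day length in Arabidopsis, and an allergen gene, Vv06s0004g07880, whose adjusted p of 0.0487 passed 0.05 in 19 of the fits that left out 1 sample. None of the 10 was called between exposed and control berries at EL38.

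**Figure D5:**
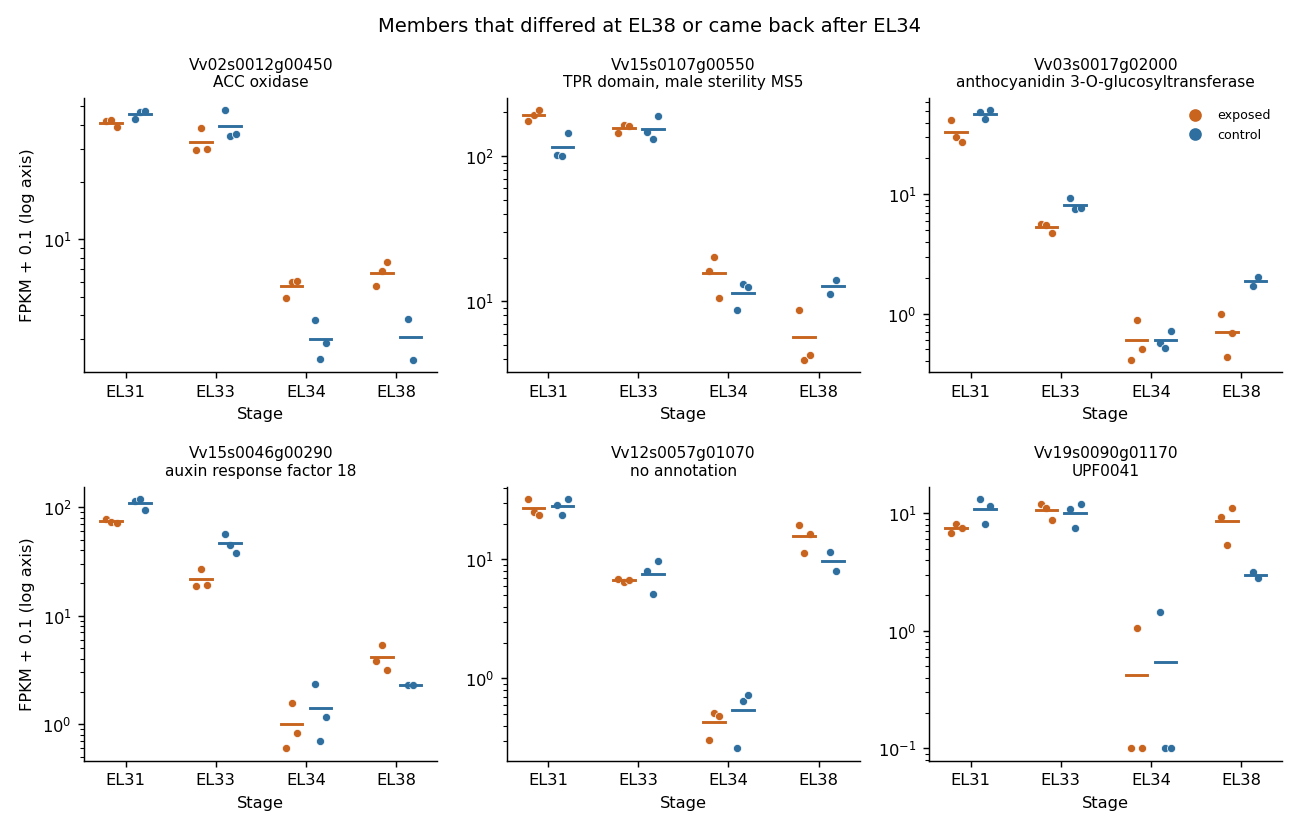
Points are the FPKM plus 0.1 of 6 genes in every sample on a log axis, exposed berries in orange to the left of control berries in blue, with bars for group means. ACC oxidase was higher in exposed berries at EL34 and EL38 but not at EL31, and the MS5-like and glucosyltransferase genes were lower in exposed berries at EL38. The 3 genes of the lower row were called higher at EL38 than at EL34 in exposed berries.

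A set of 16 of the 118 genes was listed at 0 FPKM in all 3 EL34 control samples, and their values were erratic elsewhere. A value of 0 in this table can be a failed estimate, so no fold is given against such groups. In 13 of the 16, some group held both a 0 and a value of at least 5 FPKM among its replicates, against 4 of the other 102 genes. Vv11s0016g05290, the most abundant member by its EL33 control mean, held 0, 0 and 1249 FPKM in exposed berries, against 1513, 3852 and 1103 FPKM in control berries at EL33, and 0, 0 and 2295 FPKM in exposed berries, against 1193 and 0 FPKM in control berries at EL38. Of the 16, 14 were above 0 in at least 1 exposed EL34 sample, 3 were above 0 in all 3, and 4 were called lower at EL34 than at EL33 in exposed berries.

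Of the 3 above 0 in every exposed EL34 sample, Vv05s0049g00520, without annotation, held 7023, 787 and 5968 FPKM in exposed berries, against 717, 1202 and 1005 FPKM in control berries at EL33, and 45641, 38941 and 49029 FPKM in exposed berries, against 0, 0 and 0 FPKM in control berries at EL34. It was listed at 0 in all EL38 samples of both treatments, and it is the 1 gene called higher at EL34 than at EL33 in exposed berries. Vv01s0127g00340, also without annotation, held 228, 133 and 132 FPKM in exposed berries, against 50, 48.1 and 41.5 FPKM in control berries at EL31 (log2 difference 1.78, SE 0.38, adjusted p = 0.0103), a call lost without exposed replicate 1 at an adjusted p of 0.0598. At EL34 it held 3.83, 6.41 and 2.29 FPKM in exposed berries, against 0, 0 and 0 FPKM in control berries, and it was listed at 0 in every EL38 sample.

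The set bears on the counts of the EL34 comparison. Without the 16, 98 of 102 genes were called lower and 0 higher (also 0 at an unadjusted p under 0.05 in limma) at EL34 than at EL33 in exposed berries, with a median log2 difference of -3.87. In the comparison of exposed with control berries at EL34, 4 of 102 rather than 7 of 118 were called higher, and the median log2 difference was -0.03 rather than 0.12.

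The choice of threshold sets the number of genes. Just inside it were Vv07s0104g00830, Vv18s0001g00720 and Vv02s0087g00640, with control falls of 3.503, 3.507 and 3.51, and just outside were Vv13s0019g03000, Vv00s0753g00010 and Vv19s0090g01040, with control falls of 3.48, 3.47 and 3.47. The last 2 are annotated as unknown or without a hit. In control berries the genes also differed in their course before EL33: 38 of the 118 had a higher mean at EL33 than at EL31. The extreme was Vv00s0323g00060, without annotation, which peaked at EL33 in both treatments, with 9.34, 7.57 and 19.8 FPKM in exposed berries, against 10.2, 9.54 and 7.29 FPKM in control berries at EL31, 209, 414 and 235 FPKM in exposed berries, against 475, 371 and 285 FPKM in control berries at EL33 and 4.39, 19.4 and 3.04 FPKM in exposed berries, against 28.2, 5.46 and 10.3 FPKM in control berries at EL34. In exposed berries its rise to EL33 (log2 difference 4.59, SE 0.59, adjusted p = 1.01e-05) and its fall to EL34 (log2 difference -5.39, SE 0.59, adjusted p = 1.70e-06) were both called. At the other end, Vv00s0375g00030 held 89.5, 128 and 121 FPKM in exposed berries, against 90.3, 131 and 112 FPKM in control berries at EL31 and 6.83, 13 and 8.83 FPKM in exposed berries, against 18.3, 12.5 and 15.5 FPKM in control berries at EL33, a decline that was already called in exposed berries before EL34 (log2 difference -3.59, SE 0.42, adjusted p = 3.62e-06).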

How the data were processed

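Poly(A) RNA of the berries was sequenced by the authors, who aligned the reads to the V1 genome of PN40024 with TopHat 2.0 and computed the deposited FPKM with Cufflinks 2.0. They left out 1 EL38 control sample as an outlier, and the remaining 23 samples were analysed here. Read counts were not analysed here, so precision rests on the spread between samples, and no counting interval is given. Replicates came from separate vine panels.

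The members and gene lists were chosen with earlier results of these data known. Groups were compared on log2(FPKM + 0.1) with limma 3.58.1 (R 4.3.3), with 1 mean for each of 8 groups and eBayes with a trend, over the 20205 genes whose mean reached 1 FPKM in any group. Within each comparison, p-values over all genes tested had the Benjamini-Hochberg adjustment, and a gene was called at an adjusted p of at most 0.05. A log2 difference on this scale understates changes of genes near 0. In simulated data of the same design with normal noise, 161 of 200 changed genes were recovered and 8 others were called for exposed EL34 against exposed EL33. The changed genes had a median fitted size of 1.98 on the log2 scale. Smaller differences and the erratic values of some members were not simulated. Named genes were the most abundant members, those most changed at each stage, the extremes of each fall and rise, those at the threshold, the leading members of each list, and neighbours; the 10 called without EL34 exposed replicate 2, JAZ12, ACC oxidase, the subtilase, CAB-1 and CONSTANS-LIKE 14 were added after their values were seen. Gene IDs are as deposited, and coordinates and sequences were not used here. Relative depth was fitted to 203 of 253 pairs of samples. Alternatives are listed in the closing section.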

Additional observations from a re-analysis of the deposited data

Results flagged for a closer look

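The exposure difference of 2 members differed between EL38 and EL31 in a test of the difference itself (a limma interaction contrast, Benjamini-Hochberg adjusted over 20205 genes, of which 2.54% were called). The EL31 control samples had entered the choice of genes only as an upper limit. For the ACC oxidase gene Vv02s0012g00450, the exposed minus control log2 difference was 1.16 at EL38 and -0.15 at EL31, and the first was 1.31 above the second (SE 0.287, adjusted p = 0.0245). For the MS5-like gene Vv15s0107g00550, the difference was -1.25 at EL38 and 0.75 at EL31, a change of -2.003 (SE 0.411, adjusted p = 0.0173). The EL38 control group has 2 samples, and the causes were not tested.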

How the results depend on the processing

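The number of members was 186 at a fall threshold of 3, 71 at 4, 60 with 1 added to FPKM in the rule, and 139 to 164 with a control replicate left out of it. The counts called lower at EL34 than at EL33 in exposed berries stayed within 1.5 times of 102 in all fits, and were 98 to 103 with 1 sample left out. In a fit added after the data were seen, without the 16 members at 0 in all EL34 controls, 0 were higher at that step and 4 were higher in exposed than in control berries at EL34.

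The exposure counts were small and moved more. Unless counts over all genes stand beside them, the shares called over all genes in these fits and those below are not given here. A shift of the members then cannot be told from a shift of the whole fit. With 0.5 added to FPKM, 1 member was lower in exposed berries at EL31 and 6 at EL33. With 1 added, 7 were higher and 2 lower at EL31, and 10 lower at EL33. Fitted on the 2 groups compared alone, 10 were higher and 4 lower at EL31, 0 were called in either direction at EL33 and at EL38 (over all genes, 0 higher and 4 lower at EL33, 8 higher and 6 lower at EL38), and 27 were lower at EL38 than at EL34 in exposed berries. The term for the sample number range left 0 calls in either direction at EL38, with 39 higher and 58 lower over all genes. With quantile normalization the median difference at EL31 was -0.17.

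With 1 sample left out, members called higher in exposed berries numbered 1 to 4 at EL33 and 2 to 6 at EL38. Those called lower numbered 0 to 1 at EL31, 2 to 5 at EL33, 0 to 10 at EL34 (10 without exposed replicate 2) and 0 to 5 at EL38, and the median difference was -0.177 to -0.055 at EL31 and -0.267 to 0.37 at EL34.

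The deviations of same-numbered samples from the group means correlated at -0.0252 to 0.149 between treatments and -0.0867 to 0.116 between neighbouring stages. Within a treatment the sample numbers have the same endings at every stage. Whether these mark the same vine panels is not stated in the labels. Weak correlations over all genes cannot settle it, and the samples were fitted as separate. With a replicate block, 5 members were lower at EL33, and at EL38 3 were higher and 0 lower in exposed berries; 102 were again lower at EL34 than at EL33. Of 3656 alternative values of the 111 called single-gene differences followed, 154 lost the call and 0 turned direction. The causes of these shifts were not tested, and values below 1 FPKM limit what can be said of EL38.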
